A study of Mus musculus with 4 samples.

Results

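The genes described here encode enzymes, transporters and regulators of glycolysis, the pentose phosphate pathway, the first steps that pyruvate can take and oxygen sensing. They were given as a list of 39 gene symbols by pathway, a rule that names no measured value although earlier results of these data were known, and 38 of the 39 symbols were listed in the files among 23305 genes in all. The symbol Pkm2 was not among them, and the gene is listed as Pkm, so its values are given beside the others but it is not counted. The measurements are FPKM values (fragments scaled to transcript length and to the mapped reads) from RNA-seq of follicular B cells, the recirculating mature B cells of the spleen, taken from WT and Ets1-/- mice to ask which genes depend on the transcription factor Ets1. Each genotype had 2 libraries from female mice. The WT mice were C57BL/6, whereas the Ets1-/- mice were on a mixed C57BL/6 and 129Sv background, so the effects of genotype and of strain cannot be told apart. Cells of both genotypes were sorted as live and quiescent by being positive for B220, high for CD23, low for CD21 and negative for CD80 and for surface IgA, IgE and IgG. The deletion is carried in the germline, so every tissue of these mice carried it. Nothing states whether a library came from a single mouse or from pooled mice, and the p-values measure only the spread between libraries.

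Glycolysis carries glucose to pyruvate in the cytosol. Pyruvate is then either reduced to lactate or passed to the mitochondrial pyruvate dehydrogenase complex, while the pentose phosphate pathway branches off at glucose 6-phosphate and supplies NADPH and ribose. Many of the steps are shared out among paralogous genes, and resting B cells keep a low rate of glycolysis that increases on activation. The files hold 1 value per gene, so splice forms such as the M1 and M2 products of Pkm could not be separated, and isoform choice is described below as the choice among paralogs.

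The libraries were comparable in breadth, with 10466 to 10713 genes at an FPKM of at least 1, and their relative depth ran from 0.876 in Ets1-/- replicate 2 to 1.75 in WT replicate 2. Ets1 itself had 231 and 275 FPKM in WT and 229 and 229.8 FPKM in Ets1-/-, and since the targeted allele removes only some exons, this whole-gene value does not check the labels. The 7 B cell markers used, Ms4a1, Cd79a and Cd79b among them, summed to 5899 and 5742 FPKM in WT and to 4637 and 5517 FPKM in Ets1-/-, and all 7 were detected in every library. Of the 7, Cr2, which encodes the CD21 used in the sort, was the one with an unadjusted p below 0.05 in limma, at 102 and 116 FPKM in WT and 65.1 and 29.95 FPKM in Ets1-/- (log2 fold change -1.28, limma adjusted p = 0.216). Transcripts of other blood cells were present, and no marker of the lists given here was at 0 in all libraries. The 12 neutrophil markers summed to 117 and 95.5 FPKM in WT against 2584 and 710.2 FPKM in Ets1-/-. Monocyte and macrophage markers summed to 63.3 and 31.4 against 149 and 94.8 FPKM, and erythroid markers to 23.0 and 23.4 against 106 and 38.7 FPKM. Most of the erythroid sum in WT was Tfrc, at 16.7 and 18.5 FPKM in WT and 17.4 and 10.8 FPKM in Ets1-/-. Of 5 tested erythroid markers, 3 had an unadjusted p below 0.05 in limma, all higher in Ets1-/-, and none was called. Of the neutrophil markers, 10 of 12 had an unadjusted p below 0.05 in the limma model, all of them higher in Ets1-/-, and 3 of these, Ngp, Ltf and Camp, were called. Of the 7 tested monocyte and macrophage markers, 1 had an unadjusted p below 0.05 in limma, Emr1, which was called. Emr1 had 2.35 and 2.63 FPKM in WT and 23.5 and 37.2 FPKM in Ets1-/-, and together with Lyz2 it made up most of the sum. Of the 7, 5 had positive log2 fold changes, Lyz2 at 1.28 among them. The other 2 were negative, Csf1r at -0.16 and Cd68 at -0.06. Of 5 NK cell markers, 3 had an unadjusted p below 0.05, all lower in Ets1-/-, with log2 fold changes of -1.27 for Ncr1, -0.97 for Klrb1c and -0.83 for Prf1, and none was called. The T cell markers summed to 120 and 97.8 FPKM in WT and to 93.5 and 119 FPKM in Ets1-/-. Of 8 tested, 1 had an unadjusted p below 0.05 in limma, Il7r, lower in Ets1-/- (log2 fold change -0.79). The plasma cell markers summed to 168 and 189 FPKM in WT and to 138 and 152 FPKM in Ets1-/-. Of 5 tested, Sdc1 and Prdm1 had an unadjusted p below 0.05 in limma, both higher in Ets1-/- (log2 fold changes 1.08 and 0.66). The other 3 had negative log2 fold changes, and none of the T cell or plasma cell markers was called. In bulk RNA, fewer cells of a type and less RNA per cell cannot be told apart. The part of these other cells in the values below was not tested, and markers are named again beside Slc2a3, Hk3 and Ldhb.

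Genes reaching 1 FPKM in the mean of WT or of Ets1-/- entered a limma model of log2(FPKM + 1), which took 35 of the 38 genes and left out Eno2, Slc16a3 and Egln3. A call required a difference of 1 or more on the log2 scale, in either direction, together with a Benjamini-Hochberg adjusted p no greater than 0.05 over all 10949 genes tested. Slc2a3 was the only one of the 35 called, and it was lower in Ets1-/-. Among all genes tested, 1.7% were called, 0.877% higher and 0.822% lower. An unadjusted p below 0.05 was reached by 8 of the 35 (22.9%), 4 higher and 4 lower, against 13.3% of all genes tested, 6.39% higher and 6.95% lower. The WT and Ets1-/- libraries did not overlap for 19 of the 35 (54.3%), with 13 above and 6 below WT, against 41.6% of all genes tested, 19.4% above and 22.2% below. The median log2 fold change of the 35 genes was 0.12, beside -0.02 for all genes tested. The 95% confidence interval of 30 of the 35 lay inside a log2 fold change of -1 to 1. With 2 libraries against 2, an exact permutation test of a single value cannot give a p below 0.333, so single genes were tested only in the model across all genes.

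**Figure D1:**
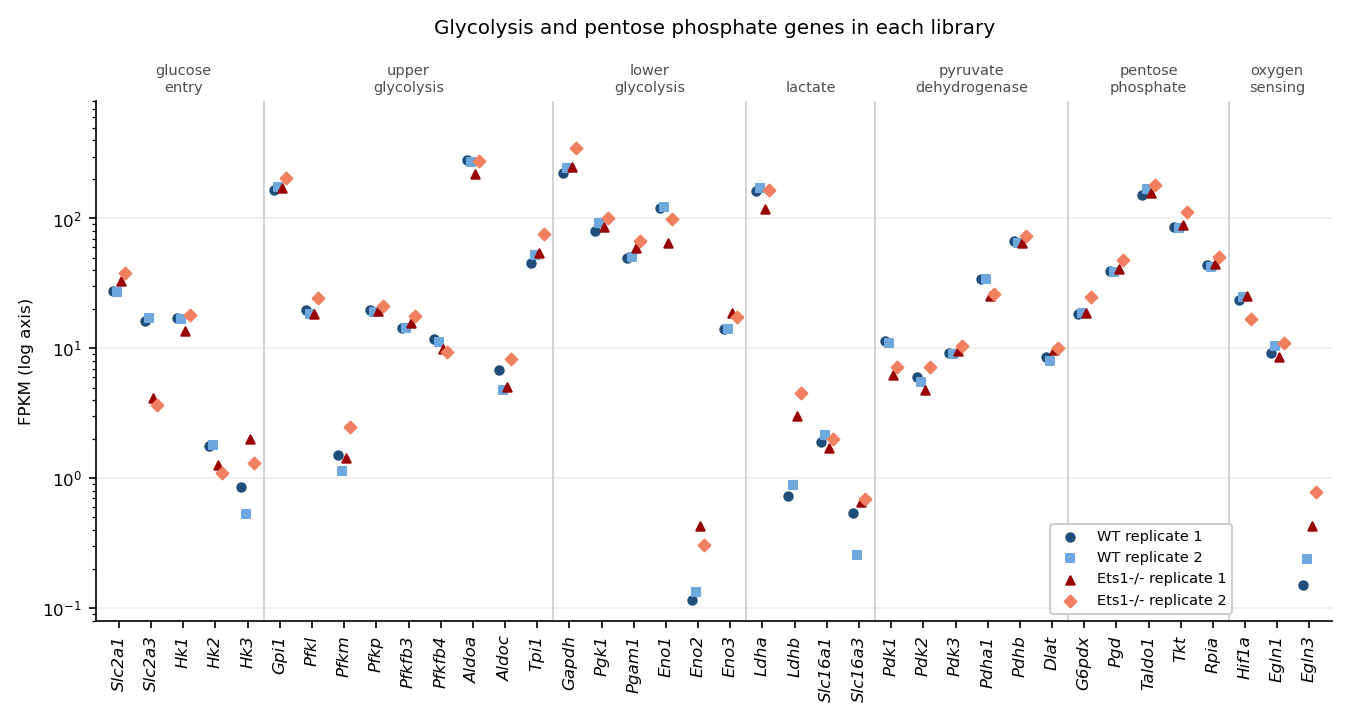
FPKM (log axis) of the 38 glycolysis and pentose phosphate genes in each library, grouped by role, with 1 point per library. Slc2a3 lies lower and Ldhb higher in both Ets1-/- libraries, while 30 of the 38 genes have genotype means within 1.5-fold of each other.

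Expression spanned a wide range, from a WT mean of 0.124 FPKM for Eno2 to one of 278 FPKM for Aldoa. In WT cells 6 of the 38 genes had a mean of 100 FPKM or more. Aldoa, the aldolase that splits fructose 1,6-bisphosphate, had the highest WT mean at 278 ± 8.47 (SD, n = 2) FPKM. It was followed by Gapdh, which makes the first NADH of the pathway, at 233 ± 13.7 FPKM. Gpi1 at 170 ± 4.57, Ldha at 168 ± 6.84 and Taldo1 at 160 ± 13.1 FPKM came next, and the spreads of these 3 overlapped. Eno1 followed at 122 ± 2.01 FPKM, and Pkm, the pyruvate kinase outside the list, stood at 194 ± 7.09 FPKM. Another 19 genes lay between 10 and 100 FPKM, 8 between 1 and 10 FPKM, and 5 under 1 FPKM, namely Hk3, Eno2, Ldhb, Slc16a3 and Egln3. Summed over the 38 genes, the level was 1795.0 and 1850 FPKM in WT and 1672 and 2086 FPKM in Ets1-/-, so the WT libraries lay between the Ets1-/- libraries.

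Glucose entry showed the clearest difference between the genotypes. Slc2a3 (GLUT3), a high-affinity glucose transporter located in mm9 on chromosome 6 from 122677827 to 122751658 on the minus strand, had 16.2 and 17.0 FPKM in WT and 4.15 and 3.67 FPKM in Ets1-/-. Both Ets1-/- libraries were far below both WT libraries and the replicates of each genotype lay close together. The mean was 16.6 ± 0.572 (SD, n = 2) FPKM in WT and 3.91 ± 0.343 FPKM in Ets1-/-, a 4.25-fold lower level. Slc2a3 fell by 1.84 on the log2(FPKM + 1) scale (SE 0.14, limma with Benjamini-Hochberg adjusted p = 0.00954), and with any 1 library left out its log2 fold change stayed between -1.92 and -1.77. In both Ets1-/- libraries, 4 of the 5 NK cell markers were also below both WT libraries. The exception was Nkg7, at 15.65 and 13.19 FPKM in WT and 15.02 and 18.57 FPKM in Ets1-/-. The sums of the NK list, which include Nkg7, overlapped between the genotypes. The part of NK cells in the Slc2a3 value was not tested. Slc2a1 (GLUT1), the transporter found in most cells, on chromosome 4 from 118781316 to 118809935, had 27.6 and 27.1 FPKM in WT and 33.3 and 37.8 FPKM in Ets1-/-. Its libraries did not overlap, in the direction opposite to Slc2a3, but the log2 fold change of 0.36 (SE 0.14) did not pass (limma with Benjamini-Hochberg adjusted p = 0.362).

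The balance between the pair of transporters therefore differed. Slc2a1 made up 63.0% and 61.4% of their summed FPKM in WT and 88.9% and 91.1% in Ets1-/-, and the Slc2a1 to Slc2a3 ratio went from 1.70 and 1.59 to 8.01 and 10.3. The sum of the 2 transporters was 43.8 and 44.1 FPKM in WT and 37.4 and 41.4 FPKM in Ets1-/-, a mean 0.898 times that of WT. Of the other family members on the list of further glycolysis genes, Slc2a9, a transporter of urate and hexoses, had 4.78 and 2.99 FPKM in WT and 1.66 and 1.92 FPKM in Ets1-/- (log2 fold change -0.79, limma adjusted p = 0.207), Slc2a6 had 12.0 and 9.82 against 11.1 and 15.9 FPKM, and Slc2a8 had 5.37 and 4.89 against 4.84 and 5.70 FPKM. Slc2a2 was listed at 0 in all libraries.

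The hexokinases, which trap glucose in the cell as glucose 6-phosphate, were led by Hk1 in every library. Hk1 had 17.1 and 16.9 FPKM in WT and 13.7 and 18.2 FPKM in Ets1-/-, so the WT libraries lay between the Ets1-/- libraries (log2 fold change -0.10, SE 0.18, limma adjusted p = 0.906). Hk2, the isoform induced in activated and growing cells, had 1.78 and 1.80 FPKM in WT and 1.27 and 1.10 FPKM in Ets1-/- (log2 fold change -0.35, limma adjusted p = 0.436). Hk3, on chromosome 13 from 55107346 to 55122746 on the minus strand, is the isoform of myeloid cells, and had 0.855 and 0.531 FPKM in WT and 2.02 and 1.32 FPKM in Ets1-/-. The Ets1-/- libraries were above WT by 2.40-fold in the means, with a log2 fold change of 0.65 (SE 0.21, limma unadjusted p = 0.0278, adjusted p = 0.267). Its order over the libraries, with Ets1-/- replicate 1 highest and WT replicate 2 lowest, was also that of the summed neutrophil markers (2584, 710.2, 117 and 95.5 FPKM). The summed monocyte and macrophage markers had this order too (149, 94.8, 63.3 and 31.4 FPKM). The neutrophil marker Csf3r did not, at 2.43 and 1.18 FPKM in WT and 2.16 and 1.36 FPKM in Ets1-/-. The part of these cells in the Hk3 value was not tested. By share, Hk1 supplied 80.6% to 88.3% of hexokinase FPKM over the 4 libraries, Hk2 at most 9.36% in WT and 7.50% and 5.34% in Ets1-/-, and Hk3 went from 4.33% and 2.76% to 11.9% and 6.39%.

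**Figure D2:**
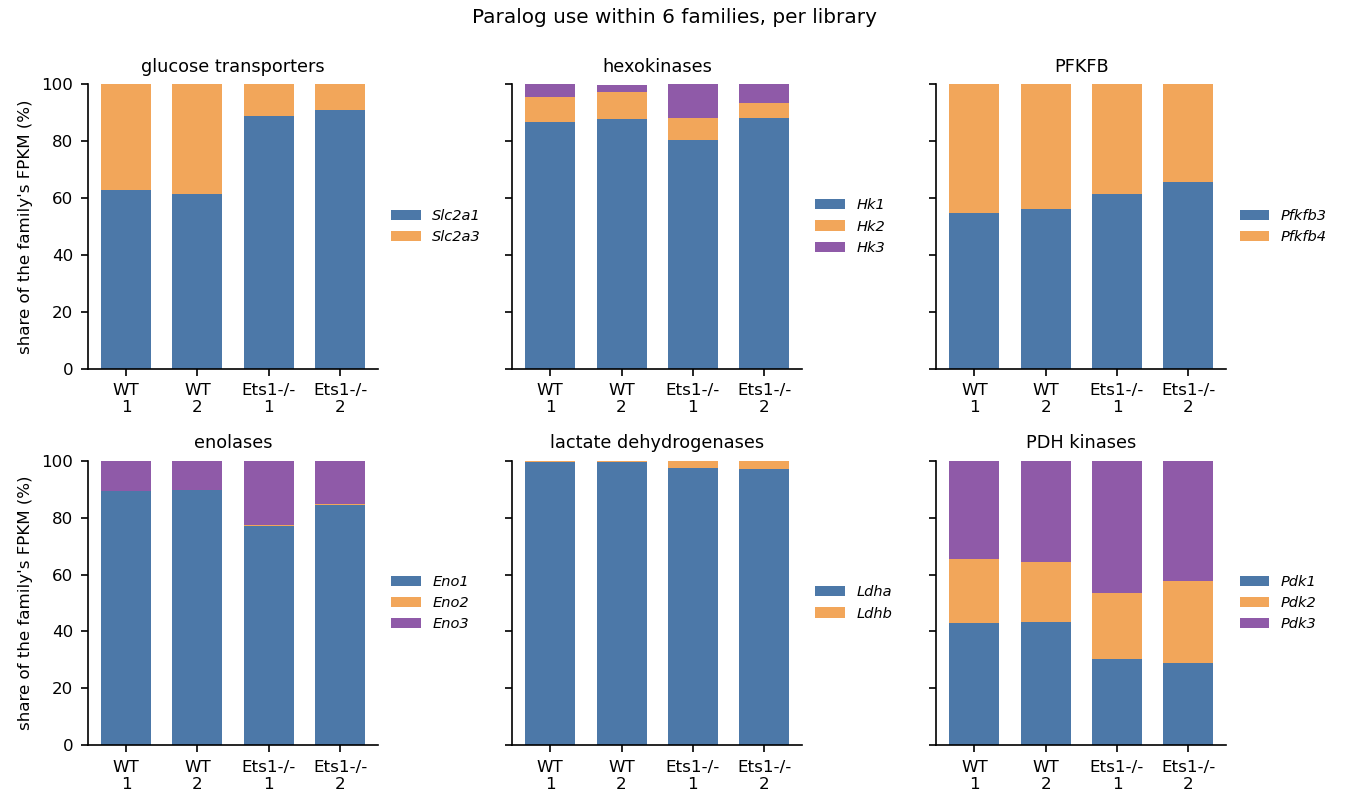
Share of each paralog (percent of the summed FPKM of its family, y axis) in each of the 4 libraries (x axis) for 6 families with more than 1 gene on the list. Slc2a1 takes 63.0% and 61.4% of the transporter pair in WT and 88.9% and 91.1% in Ets1-/-, Pdk1 lies below Pdk3 in both Ets1-/- libraries, and Ldha remains almost all of the lactate dehydrogenase pair in all 4.

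The 9 genes of upper glycolysis, from glucose 6-phosphate to the triose phosphates, showed no call, and none had an unadjusted p below 0.05. All 9 log2 fold changes lay within 0.5 of 0, from -0.23 for Pfkfb4 to 0.40 for Tpi1. Gpi1, which converts glucose 6-phosphate to fructose 6-phosphate, had 167 and 173 FPKM in WT and 171 and 206 FPKM in Ets1-/-. Phosphofructokinase, the committing step of glycolysis, was shared almost evenly between the liver-type gene Pfkl and the platelet-type gene Pfkp. Pfkl had 19.7 and 18.4 FPKM in WT and 18.4 and 24.3 FPKM in Ets1-/-, and Pfkp had 19.7 and 19.2 against 19.4 and 21.4 FPKM. The muscle-type gene Pfkm was low, at 1.51 and 1.13 against 1.44 and 2.50 FPKM. These 3 genes overlapped between the genotypes, and the log2 fold change was 0.15 for Pfkl (SE 0.18, limma adjusted p = 0.856) and 0.06 for Pfkp (SE 0.13, limma adjusted p = 0.933).

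The bifunctional enzymes that set the level of fructose 2,6-bisphosphate, an activator of phosphofructokinase, differed in opposite directions by small amounts. Pfkfb3, whose product mainly makes this activator, had 14.3 and 14.4 FPKM in WT and 15.8 and 17.8 FPKM in Ets1-/-, and Pfkfb4 had 11.8 and 11.3 against 9.94 and 9.37 FPKM. Neither pair of groups overlapped, and neither gene passed the test (limma adjusted p = 0.651 and 0.593). Pfkfb3 made up 54.8% and 56.1% of the pair in WT and 61.4% and 65.5% in Ets1-/-. Aldoa had 284 and 272 FPKM in WT and 218 and 276 FPKM in Ets1-/- (log2 fold change -0.18, SE 0.19, limma adjusted p = 0.822). It supplied 97.1% to 98.3% of aldolase FPKM, with Aldoc at 6.80 and 4.77 against 5.07 and 8.30 FPKM. Tpi1, which interconverts the triose phosphates, had 45.2 and 52.0 FPKM in WT and 54.4 and 76.3 FPKM in Ets1-/- (log2 fold change 0.40, 95% confidence interval -0.13 to 0.94, limma adjusted p = 0.539).

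In lower glycolysis, which yields ATP and pyruvate, Gapdh had 224 and 243 FPKM in WT and 247 and 346 FPKM in Ets1-/- (log2 fold change 0.33, 95% confidence interval -0.23 to 0.88, limma adjusted p = 0.659). Gapdh is widely used as a reference gene, and the gap between its Ets1-/- replicates was larger than the gap between the genotypes' nearest libraries. Pgk1, which makes the first ATP of the pathway, had 79.5 and 92.2 against 86.3 and 100.3 FPKM, and Pgam1, a phosphoglycerate mutase, had 49.5 and 50.3 against 59.4 and 67.6 FPKM. Pgam1 did not overlap between the genotypes and missed the test (log2 fold change 0.34, limma adjusted p = 0.415). Pkm had 189 and 199 FPKM in WT and 184 and 241 FPKM in Ets1-/- (log2 fold change 0.12, limma adjusted p = 0.904). These values rest on counting that could be split with copies, since coding sequences at least 95% identical over at least 50% of their length were found elsewhere in mm9 for 9 of the 39 genes searched, at 73 loci for Gapdh, at 2 each for Pgk1, Pgam1 and Ldha, and at 1 each for Gpi1, Pkm2, Ldhb and Pdhb. The other 30 genes had no such copy.

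Enolase makes phosphoenolpyruvate, and its main gene in these cells was Eno1, on chromosome 4 from 149610830 to 149622988 on the plus strand. Eno1 had 121 and 124 FPKM in WT and 64.9 and 98.4 FPKM in Ets1-/-, so that both Ets1-/- libraries were below WT and differed from each other by 1.52-fold. The log2 fold change was -0.60 (SE 0.23), which did not pass after adjustment (limma adjusted p = 0.359). Eno1 had 3 near-identical loci, and 1 of them, Gm5506, was listed in the files. It matches all 1305 coding bases of Eno1 at 99.4% identity, and it was singled out after its values were seen. Gm5506 had 0.241 and 0.137 FPKM in WT and 22.3 and 35.1 FPKM in Ets1-/- (log2 fold change 4.61, SE 0.24, limma adjusted p = 0.00309). It took 25.6% and 26.3% of the summed FPKM of both genes in Ets1-/- and 0.199% and 0.111% in WT.

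Added together, Eno1 and Gm5506 had 121 and 124 FPKM in WT and 87.2 and 134 FPKM in Ets1-/-, so that the genotypes overlapped and the log2 fold change was -0.18 (SE 0.24, limma adjusted p = 0.868). The separation seen for Eno1 alone was absent from the sum, and how reads of near-identical sequences were divided is not given in the sources used here. The 129Sv part of the Ets1-/- background cannot be told apart from the genotype for this pair. Of the other enolases, Eno3, the muscle form, had 14.1 and 14.1 FPKM in WT and 18.9 and 17.6 FPKM in Ets1-/- (log2 fold change 0.35, SE 0.13, limma adjusted p = 0.359), without overlap. Eno2, the neuronal form, had 0.116 and 0.132 against 0.429 and 0.309 FPKM and was too low to be tested. Without Gm5506, Eno1 made up 89.4% and 89.7% of enolase FPKM in WT and 77.1% and 84.6% in Ets1-/-.

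**Figure D3:**
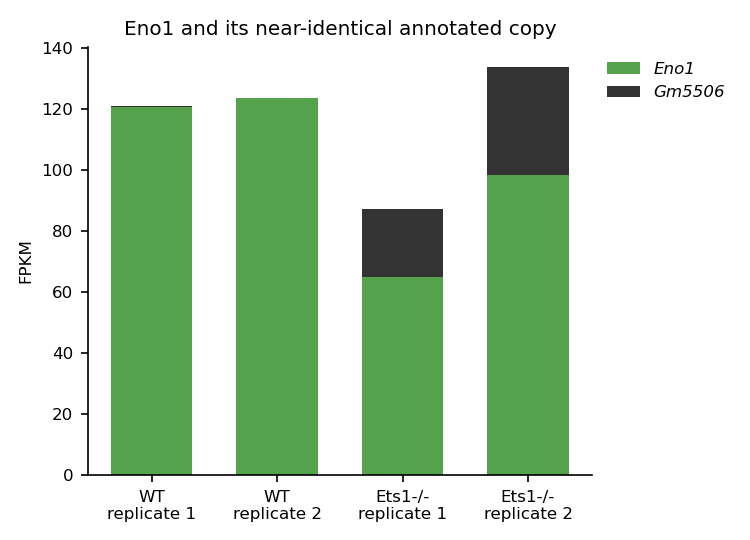
FPKM of Eno1 and of its near-identical copy Gm5506, stacked from 0, in each library. The Gm5506 part is visible only in the Ets1-/- libraries, at 22.3 and 35.1 FPKM, and the summed bars of Ets1-/- (87.2 and 134 FPKM) lie on either side of those of WT (121 and 124 FPKM).

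At the lactate branch, the genotypes differed in the minor gene. Lactate dehydrogenase is a tetramer, and the Ldha product favours making lactate while the Ldhb product is known for the reverse reaction. Ldhb, on chromosome 6 from 142438769 to 142456477 on the minus strand, had 0.735 and 0.887 FPKM in WT and 3.01 and 4.54 FPKM in Ets1-/-. Both Ets1-/- libraries were well above both WT libraries, by 4.65-fold in the means (0.811 ± 0.108 against 3.77 ± 1.08 FPKM, SD, n = 2). The log2 fold change of 1.38 (SE 0.21, unadjusted p = 0.00117) missed the threshold with a limma adjusted p of 0.0559. It passed with a pseudocount of 0.1 (log2 fold change 2.06, limma adjusted p = 0.0497) and in a fit that blocked on replicate number (limma adjusted p = 0.0225), so the call depended on the setting while the direction did not. Ldhb has 1 near-identical locus in mm9, the pseudogene Gm5514 on chromosome 19. No value is listed for Gm5514, so a split of reads with Ldhb could not be examined. The neutrophil marker sum was also higher in Ets1-/- (2584 FPKM in replicate 1 and 710.2 FPKM in replicate 2). Between these replicates Ldhb had the opposite order, with 3.01 FPKM in replicate 1 and 4.54 FPKM in replicate 2. The part of neutrophils in the Ldhb value was not tested.

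Ldha had 163 and 173 FPKM in WT and 117 and 165 FPKM in Ets1-/- (log2 fold change -0.27, SE 0.21, limma adjusted p = 0.727), with overlap. It remained the dominant gene of the pair. Ldhb supplied 0.449% and 0.511% of lactate dehydrogenase FPKM in WT and 2.49% and 2.68% in Ets1-/-, and the Ldha to Ldhb ratio was 222 and 195 in WT and 39.1 and 36.3 in Ets1-/-. Both monocarboxylate transporters, which move lactate across the plasma membrane, were low. Slc16a1 (MCT1) had 1.90 and 2.15 FPKM in WT and 1.71 and 1.99 FPKM in Ets1-/- (log2 fold change -0.09, SE 0.16, limma adjusted p = 0.915), and Slc16a3 (MCT4) had 0.538 and 0.258 against 0.657 and 0.688 FPKM. Bsg, the chaperone that takes these transporters to the membrane, had 72.6 and 74.6 against 67.8 and 86.1 FPKM.

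Use of pyruvate within the mitochondrion is controlled at pyruvate dehydrogenase, which the PDK kinases switch off. Pdk1, on chromosome 2 from 71711281 to 71741915 on the plus strand, had 11.4 and 11.1 FPKM in WT and 6.19 and 7.17 FPKM in Ets1-/-. The groups were well separated, with a 1.68-fold lower mean in Ets1-/-, but the log2 fold change of -0.68 (SE 0.14, unadjusted p = 0.00507) did not pass (limma adjusted p = 0.114). Pdk2 had 6.02 and 5.49 against 4.76 and 7.18 FPKM, with overlap. Pdk3 had 9.15 and 9.08 against 9.54 and 10.5 FPKM. Pdk1 was the most abundant of the 3 kinases in WT, with 43.0% and 43.2% of their FPKM, and Pdk3 was in Ets1-/-, with 46.6% and 42.2%, so that the Pdk3 to Pdk1 ratio was at most 0.819 in WT and was 1.54 and 1.46 in Ets1-/-. Pdk4 was near 0, at no more than 0.0494 FPKM in any library.

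Of the complex itself, Pdha1, the subunit that the kinases phosphorylate, on the X chromosome from 156560141 to 156576345 on the minus strand, had 34.2 and 34.2 FPKM in WT and 25.2 and 26.4 FPKM in Ets1-/-. Replicates of each genotype lay close together and the groups did not overlap, with a log2 fold change of -0.39 (SE 0.13, limma adjusted p = 0.271). Its partner subunit Pdhb had 67.5 and 64.3 against 64.7 and 72.8 FPKM, with overlap, and Dlat, the acetyltransferase core, had 8.53 and 7.94 against 9.81 and 10.1 FPKM. The Pdhb to Pdha1 ratio was 1.97 and 1.88 in WT and 2.57 and 2.75 in Ets1-/-. On the list of further genes at pyruvate entry, 0 of 8 tested were called by limma and 1 had an unadjusted p below 0.05. This was Mpc1, part of the carrier that brings pyruvate through the inner membrane, at 54.3 and 67.1 FPKM in WT and 39.4 and 36.2 FPKM in Ets1-/- (log2 fold change -0.66, limma adjusted p = 0.158). Its partner Mpc2 ranged from 23.8 to 27.2 FPKM, with both extremes in WT.

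All 5 pentose phosphate genes had positive log2 fold changes, from 0.08 for Taldo1 to 0.23 for Tkt, and none was called or had an unadjusted p below 0.05 in limma. G6pdx, the rate-limiting dehydrogenase that makes NADPH, had 18.3 and 18.8 FPKM in WT and 18.7 and 25.0 FPKM in Ets1-/-. Pgd, which makes the second NADPH, had 39.6 and 39.0 against 40.9 and 48.3 FPKM. Rpia, which forms ribose 5-phosphate for nucleotides, had 43.6 and 42.5 against 44.5 and 50.3 FPKM. Of the enzymes that return carbon to glycolysis, Tkt had 86.4 and 83.8 against 88.6 and 113 FPKM and Taldo1 had 150 and 169 against 157 and 181 FPKM. Pgd, Tkt and Rpia did not overlap between the genotypes, yet their Ets1-/- replicate 1 lay close to WT, and the 5 genes were all higher in Ets1-/- replicate 2 than in replicate 1. The widest of their intervals, that of G6pdx, ran from -0.25 to 0.67 on the log2 scale. Among 7 further tested genes of the pathway none was called or reached an unadjusted p below 0.05 in limma, with Pgls, the lactonase between G6pdx and Pgd, at 143 and 132 against 142 and 199 FPKM.

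The genes of oxygen sensing were no closer to a call. Hif1a, the transcription factor subunit that induces many glycolytic genes when oxygen is low, had 23.6 and 24.9 FPKM in WT and 25.5 and 16.8 FPKM in Ets1-/-, and the sign of its log2 fold change (-0.22) turned to 0.07 without Ets1-/- replicate 2. Egln1, the prolyl hydroxylase that marks HIF-1alpha for degradation, had 9.25 and 10.4 against 8.65 and 11.0 FPKM, with a log2 fold change of -0.01 (SE 0.17, limma adjusted p = 0.998). Egln3, itself a HIF-induced hydroxylase, had 0.152 and 0.238 against 0.433 and 0.780 FPKM and was not tested. Of 11 tested hypoxia-inducible genes outside glycolysis 0 were called by limma and 1 had an unadjusted p below 0.05, Ankrd37, with 19.8 and 18.7 FPKM in WT and 36.3 and 69.4 FPKM in Ets1-/- (log2 fold change 1.34, limma adjusted p = 0.141). Bnip3, another gene of that list, had 7.11 and 6.73 against 6.56 and 6.42 FPKM.

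Many glycolytic genes are known targets of HIF-1, whose binding element has the core ACGTG, and their promoters were searched for these letters. The 250 bases upstream of the start site are shown for 4 genes from RefSeq (build GRCm38.p6), 5′ to 3′ on the strand of the gene, to set the major transporter and lactate dehydrogenase genes beside Ldhb and Pdk1, the genes with the largest absolute log2(FPKM + 1) fold changes after Slc2a3 among the 35 tested. Capitals mark ACGTG on either strand, which reads CACGT on the reverse strand and lies within every CACGTG. Slc2a1 is at chr4:119108495-119108744 on the plus strand, Ldha at chr7:46845554-46845803 on the plus strand, Ldhb at chr6:142507958-142508207 on the minus strand and Pdk1 at chr2:71872974-71873223 on the plus strand.
Slc2a1: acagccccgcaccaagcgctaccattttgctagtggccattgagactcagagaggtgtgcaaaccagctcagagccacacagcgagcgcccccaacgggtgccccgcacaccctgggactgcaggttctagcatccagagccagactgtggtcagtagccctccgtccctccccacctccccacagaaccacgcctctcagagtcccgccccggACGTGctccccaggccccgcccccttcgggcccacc
Ldha: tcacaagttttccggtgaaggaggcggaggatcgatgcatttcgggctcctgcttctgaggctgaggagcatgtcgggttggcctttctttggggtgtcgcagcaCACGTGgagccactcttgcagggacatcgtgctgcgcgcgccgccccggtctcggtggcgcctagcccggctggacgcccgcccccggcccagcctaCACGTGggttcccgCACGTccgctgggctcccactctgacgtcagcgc
Ldhb: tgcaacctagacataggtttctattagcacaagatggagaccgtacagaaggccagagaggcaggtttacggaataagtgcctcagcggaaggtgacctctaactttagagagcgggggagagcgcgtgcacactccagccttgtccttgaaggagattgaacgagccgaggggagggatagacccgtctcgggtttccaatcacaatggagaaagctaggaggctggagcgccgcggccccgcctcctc
Pdk1: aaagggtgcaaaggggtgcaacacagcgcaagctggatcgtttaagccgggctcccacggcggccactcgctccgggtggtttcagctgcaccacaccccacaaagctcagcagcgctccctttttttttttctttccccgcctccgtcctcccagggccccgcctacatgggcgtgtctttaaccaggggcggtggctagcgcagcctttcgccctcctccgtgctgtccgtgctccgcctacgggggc

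Slc2a1 held a single ACGTG and Ldha held it in a pair of CACGTG sites and a CACGT, whereas these letters were absent from the windows of Ldhb and Pdk1. For genes with several listed starts, such as Ldha and Pdk1 with 2 each, only the most upstream start was searched. RefSeq promoters of 300 bases, reaching 50 bases past the start, were matched for 37 of the 38 genes, Slc2a3 being the exception. Of the 37, 19 held ACGTG (51.4%) against 21.3% of the promoters of 16342 genes, and 5 held the E-box CACGTG (13.5% against 8.26%). The 16342 genes were not matched to the list in expression or base composition, and no test was run on these shares. The Ets-type motif CGGAAGT, on either strand, was in 2 of the 37, Gpi1 and Tkt (5.41% against 8.79%). The median log2 fold change was 0.12 for the 17 tested genes with ACGTG, of which 12 were higher in Ets1-/-, and 0.13 for the 17 without it, of which 11 were higher.

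**Figure D4:**
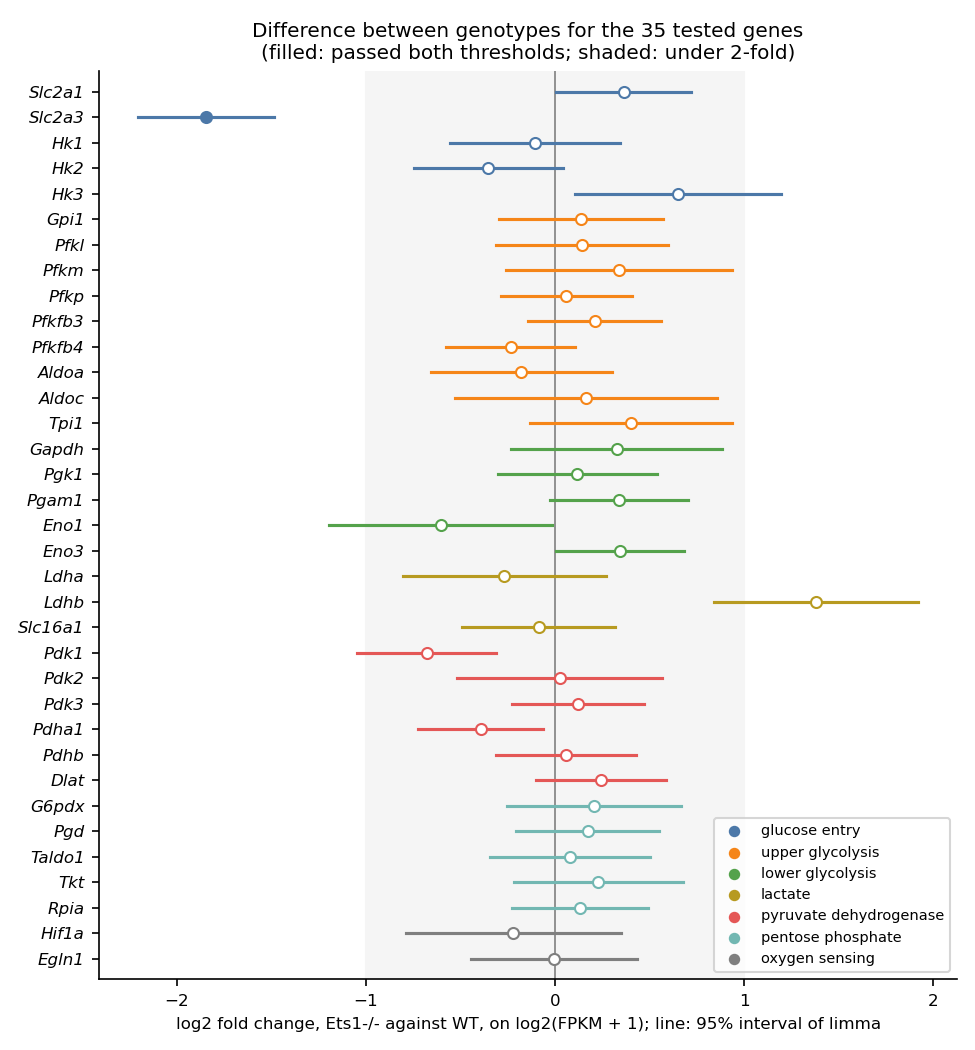
Log2 fold change (Ets1-/- over WT, log2(FPKM + 1) scale) of the 35 tested genes, with the 95% confidence interval of the limma model, ordered by role. Only the interval of Slc2a3 lies wholly below -1, and 30 of the 35 intervals lie between -1 and 1.

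Much of the spread of these genes was between the Ets1-/- replicates. Of the 35 tested genes, 29 (82.9%) were higher in Ets1-/- replicate 2 than in replicate 1, beside 54.2% of all genes tested. Measured against the WT mean, the median log2 difference of the 35 genes was 0.00 in Ets1-/- replicate 1 and 0.23 in Ets1-/- replicate 2, so the positive median of the genotype comparison came from replicate 2 and without that library it was 0.00. All 6 pyruvate dehydrogenase genes, all 5 pentose phosphate genes and 8 of the 9 upper glycolysis genes were higher in replicate 2, and so were 14 of the 15 citrate cycle genes, which are no members of the list. The exceptions were Slc2a3, Hk2, Hk3, Pfkfb4, Eno3 and Hif1a. Replicate 2 was the shallowest library and replicate 1 had the highest neutrophil marker sum and the lowest B cell marker sum (4637 FPKM), and the part of either in this difference was not tested. The WT replicates showed no such shift, with 17 of the 35 genes higher in WT replicate 2 and a median difference of 0.00.

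**Figure D5:**
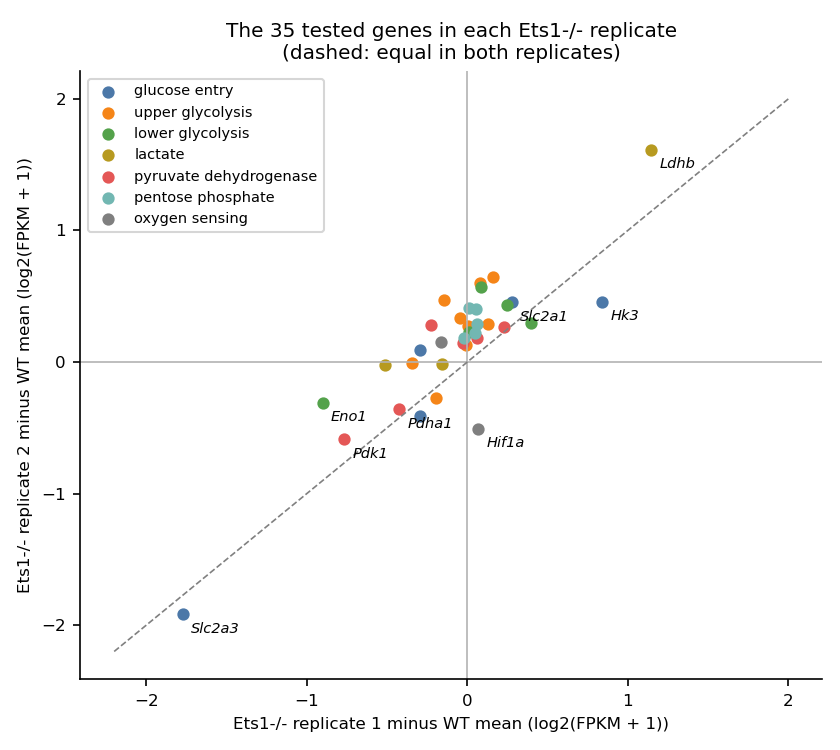
Log2 difference from the WT mean of each of the 35 tested genes in the Ets1-/- libraries, replicate 1 against replicate 2. Most points lie toward replicate 2, with medians of 0.00 and 0.23, and Slc2a3, Pdk1 and Pdha1 are low while Ldhb is high in both.

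Further genes around the pathway, 88 symbols in 7 lists, gave 67 tested genes. By limma 0 of the 67 were called and 6 had an unadjusted p below 0.05, 3 higher and 3 lower, and their median log2 fold change was 0.03. Besides Slc2a9, Mpc1 and Ankrd37, these were Pgam2, the muscle phosphoglycerate mutase, Pygm, the muscle glycogen phosphorylase, and Fh1, the fumarase of the citrate cycle. Pgam2 had 5.89 and 7.74 FPKM in WT and 13.5 and 13.1 FPKM in Ets1-/- (log2 fold change 0.88, limma adjusted p = 0.0895). Pygm had 2.29 and 2.52 against 1.18 and 1.04 FPKM (log2 fold change -0.69, limma adjusted p = 0.127), while Pygb, the more abundant phosphorylase gene, had 23.4 and 21.0 against 19.9 and 27.2 FPKM. Fh1 had 68.4 and 62.8 against 88.7 and 107.8 FPKM (log2 fold change 0.57, limma adjusted p = 0.209). The other 14 citrate cycle genes had log2 fold changes between -0.41 and 0.27.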

How the data were processed

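Per the labels and the study's methods, the authors aligned reads to mm9 with TopHat2 2.0.13 and ran Cuffdiff. The deposited values are FPKM, 1 for each gene symbol and library, already scaled to gene length and mapped reads. The annotation, strand setting and handling of reads with several matches are not given in the sources used here. The study gives a range of reads per sample, and the depth of each library is known only as an approximate ratio from low values. Symbols listed more than once were dropped (4 of 23309 entries). An FPKM of 0 is described as listed at 0.

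A linear model with a trended empirical Bayes prior (limma 3.58.1, R 4.3.3, 2 residual and 3.10 prior degrees of freedom) was fitted to log2(FPKM + 1) of the 4 libraries for 10949 genes with a genotype mean of 1 FPKM or more. Adding 1 understates the change of low genes. Tests for counts were not run. The rule for naming took in every gene of the list, and further genes with an unadjusted p below 0.05. Slc2a2, Slc2a6, Slc2a8, Bsg, Pdk4, Mpc2, Pgls, Bnip3 and Pygb were named after their values were seen. A further B cell marker is not reported here. Members and lists were chosen with earlier results of these data known. Positions are from GENCODE M1 (mm9), near-identical copies from blastn 2.17.0, promoters and the synonym Pkm from RefSeq. Alternatives covered the pseudocount, the filter, scaling, the variance estimate, the threshold, a replicate block and leaving out each library. The fit was also run on simulated data in which the replicate deviations cancelled in each genotype mean. That run therefore could not show how well fold changes are recovered or how often false calls arise.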

Additional observations from a re-analysis of the deposited data

How the results depend on the processing

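The count of 186 called genes became 90 with a pseudocount of 5, 75 with no filter, 106 with a filter of 5 FPKM, 305 with robust empirical Bayes, 312 at an adjusted p of 0.1, and 130 to 144 with 1 library left out. Slc2a3 was called under every alternative run (log2 fold change -2.06 to -1.28, limma adjusted p at most 0.0448). Called genes of the list became 2, Slc2a3 and Ldhb, with a pseudocount of 0.1, robust empirical Bayes, an adjusted p of 0.1 and the replicate block, and stayed at 1 with any library left out. Each of these last fits has a genotype with a lone library, assumed to vary like the other genotype. The median of the list ranged from 0.00314 without Ets1-/- replicate 2 to 0.226 without Ets1-/- replicate 1. The limma adjusted p of Ldhb ran from 0.0152 to 0.165 and was 0.00121 with the crossed pairing described below, and a filter of 5 FPKM gave it no value.

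Whether shared replicate numbers pair the samples cannot be decided with 2 libraries per genotype. The deviation of replicate 1 from its genotype mean had a correlation of -0.207 between WT and Ets1-/- across genes, a single value. The replicate block gave 266 called genes, and the crossed pairing, chosen after seeing the data, gave 409, with 2 on the list. The sign of the log2 fold change held in every alternative for 26 of the 35 genes and turned for 9. With 1 library left out, it ran from -0.29 to 0.090 for Hk1, -0.047 to 0.34 for Pfkl, -0.0060 to 0.13 for Pfkp, -0.14 to 0.47 for Aldoc, -0.23 to 0.28 for Pdk2, -0.024 to 0.14 for Pdhb, -0.020 to 0.18 for Taldo1, -0.51 to 0.068 for Hif1a and -0.17 to 0.15 for Egln1. It was also 0.033 for Egln1 with quantile normalization. The cause was not tested. With 2 libraries per genotype, the 95% intervals reached 0.331 to 0.694 on the log2 scale to either side, so smaller differences could not be resolved.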
